A study of Mus musculus with 8 samples.

Results

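The adenosine receptors Adora1, Adora2a, Adora2b and Adora3 were examined in the mouse myeloid line 32Dcl3, whose immature cells depend on interleukin-3 (IL-3) and can be driven toward granulocytes with granulocyte colony-stimulating factor (G-CSF). Members were all probe sets to which the probe table used here, drawn from the platform annotation, gives 1 gene symbol equal to one of these 4 names. Of the 4 receptor genes, 1 had such a probe set: Adora3 had 2 (1429609_at and 1430482_at), out of 45037 probe sets and 18193 named genes on the array. The table leaves some probe sets without a symbol, so the array may still measure Adora1, Adora2a and Adora2b, which were not analysed here, and the comparison among receptors is between the 2 readings of Adora3 and the nucleotide receptors described further on. Adora3 was selected on its difference between the cultures, which had the same direction at all 4 time points. That difference is therefore given as a description, without a test. The change with G-CSF was not part of the selection and was tested. However, the spread behind that test is made of the same 4 differences between the cultures.

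The cells were transduced with the retroviral vector pMYs-IG alone (mock) or with pMYs-FLAG-ASXL1-MT-IG, the same vector carrying FLAG-tagged mutant ASXL1, a chromatin-associated protein that is often truncated in myeloid malignancies. Each culture was profiled in IL-3 (0 h) and after 2, 6 and 24 h with G-CSF, on 1 Affymetrix array per condition and 8 arrays in all. All 8 arrays came from transduced cells, so there was no untransduced control. The labels name no clone, say nothing of how transduced cells were selected, and do not give whether the time points were separate cultures. No condition had a replicate, so the cultures stood in for replicates of a time point and the time points for replicates of the vector. The spread behind the p-values is the departure of the arrays from an additive fit of time and culture. Spread between independent cultures of a condition could not be measured, and the number of arrays limits the precision. In RNA from whole cultures, fewer cells that express a gene and less RNA per cell cannot be told apart.

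Adenosine receptors are G protein-coupled receptors of the cell surface. Adora1 and Adora3 couple mainly to Gi proteins, which lower cyclic AMP (cAMP), whereas Adora2a and Adora2b couple to Gs proteins, which raise it. Adenosine outside the cell arises largely from released ATP through the ectonucleotidases CD39 (Entpd1) and CD73 (Nt5e), and is removed by transport into the cell, deamination or phosphorylation. In blood cells Adora3 is known for its roles in neutrophil migration and in the degranulation of rodent mast cells.

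Adora3 lies on mouse chromosome 3. The 250 bases before its annotated start are shown because both of its probe sets rose together after 24 h in G-CSF. They span chr3:105904171-105904420 on the plus strand of GRCm38.p6 (RefSeq), with motif matches in capitals.
Adora3 promoter: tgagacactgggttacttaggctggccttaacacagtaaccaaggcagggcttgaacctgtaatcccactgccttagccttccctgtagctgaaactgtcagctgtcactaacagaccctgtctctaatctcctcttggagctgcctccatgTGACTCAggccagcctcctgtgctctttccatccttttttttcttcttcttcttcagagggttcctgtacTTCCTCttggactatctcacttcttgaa
The first run of capitals, TGACTCA, matches the AP-1 motif TGANTCA and begins 98 bases before the start. The second, TTCCTC, is the reverse complement of GAGGAA, a core shared by PU.1 and other ETS factors, and begins 28 bases before it. The GATA motif AGATAA was found on the minus strand, beginning 19 bases after the start and so outside the printed stretch. Of 32851 promoter windows of 300 bases (250 before and 50 after the start), 7.81% held the AP-1 motif on either strand, 28.3% the ETS motif and 11.2% the GATA motif. The STAT motif TTCNNNGAA (in 8.3% of windows), the cAMP response element TGACGTCA (1.79%) and the C/EBP motif TTGCNNAA (10.8%) were not found in the Adora3 window. These matches describe letters only, and no 2 of them overlap.

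Values are on a log2 scale relative to the median of the same probe set over the 8 arrays, so 0 is the middle of that probe set's own arrays and says nothing of its abundance. On probe set 1429609_at, the ASXL1-MT culture gave -0.12 in IL-3, 0.12 at 2 h, 0.12 at 6 h and 1.44 at 24 h. The mock culture gave -1.17, -1.09, -0.93 and 0.35 at the same times. The lowest 3 of the 8 arrays were thus the mock arrays up to 6 h, and the highest was the ASXL1-MT array at 24 h. The cultures overlapped only through the mock array at 24 h, which exceeded the ASXL1-MT arrays at the earlier times. In the order of the 8 values, ASXL1-MT at 2 h and at 6 h were the only neighbours closer than the residual SD of a single array around the fit of time and culture, which was 0.05 for this probe set.

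On probe set 1430482_at, the ASXL1-MT culture gave -0.60 in IL-3, 0.13 at 2 h, 0.81 at 6 h and 1.38 at 24 h. The mock culture gave -1.17, -0.13, -0.58 and 0.88. Here the ASXL1-MT series climbed from each time to the next, while the mock series was lower at 6 h than at 2 h. The highest array was again ASXL1-MT at 24 h and the lowest again mock in IL-3. Its residual SD was 0.35, and 3 neighbouring pairs in the order were closer than that: ASXL1-MT in IL-3 with mock at 6 h, the cultures at 2 h, and ASXL1-MT at 6 h with mock at 24 h.

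**Figure D1:**
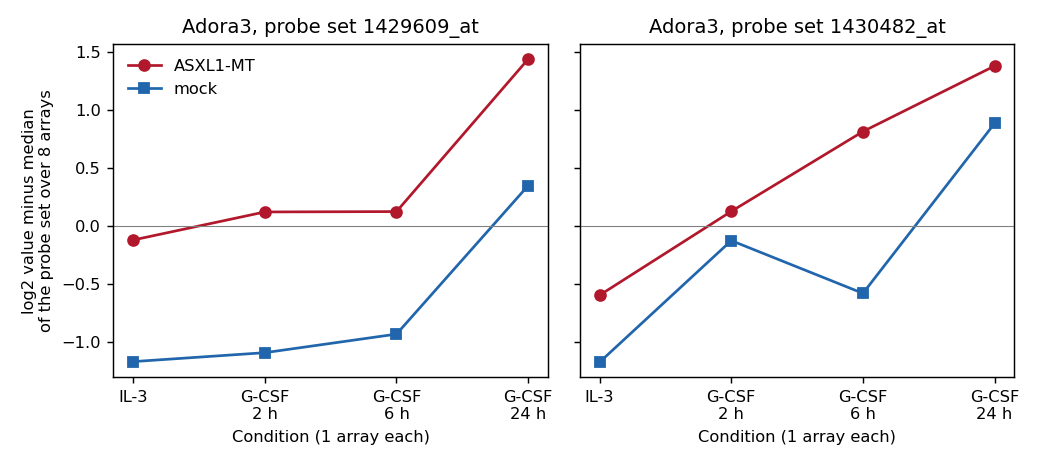
Value of each Adora3 probe set (log2, relative to its median over 8 arrays) at 4 times (IL-3, then 2, 6 and 24 h of G-CSF), with 1 array per point; circles are the ASXL1-MT culture and squares the mock culture. The ASXL1-MT point lies above the mock point at every time on both probe sets, and both cultures are highest at 24 h.

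The probe sets gave similar profiles in outline and differed in detail. Over the 8 arrays they correlated with Pearson's r of 0.857 and Spearman's rho of 0.905. This is a description of arrays that share time and culture. When all named probe sets that passed the filter were ranked by r with 1429609_at, the other Adora3 probe set stood at rank 107 of 23684. Probe set 1430482_at separated the cultures most widely at 6 h and least at 2 h, whereas 1429609_at separated them most at 2 h. Which stretch of the transcript either probe set reads was not settled. In RefSeq's GRCm38.p6 annotation the gene Tmigd3 spans Adora3, and no named probe set was found for it, so signal from shared sequence cannot be assigned to one gene.

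Adora3 was higher in the ASXL1-MT culture at each of the 4 times, which is how it was chosen. On 1429609_at the difference (ASXL1-MT minus mock, log2) was 1.05 in IL-3, 1.21 at 2 h, 1.05 at 6 h and 1.09 at 24 h. Its mean was 1.10 ± 0.08 (SD over 4 time points), a 2.14-fold ratio of nearly constant size before and during G-CSF. On 1430482_at the difference was 0.58, 0.25, 1.39 and 0.49 at the same times. Its mean was 0.68 ± 0.50, a 1.60-fold ratio, and the smallest value of either probe set was the 0.25 at 2 h. The 6 h arrays weighed on this mean, which was 0.44 without either of them. Of 29082 probe sets that passed the filter on dim probe sets, 2412 (8.29%) also lay above mock at all 4 times. Tested over all of these probe sets with limma, ASXL1-MT against mock gave 0 calls at an adjusted p under 0.05 (0.0%), and 1757 probe sets had an unadjusted p under 0.05.

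**Figure D2:**
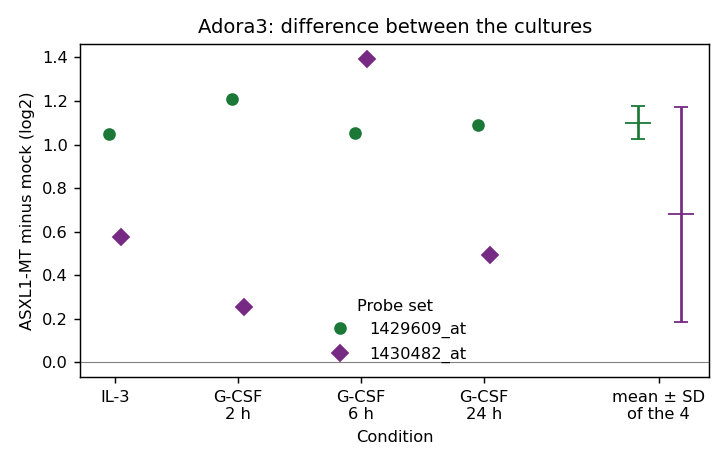
Difference between the cultures (ASXL1-MT minus mock, log2) for both Adora3 probe sets at each time, and their mean ± SD over the 4 time points. On 1429609_at the 4 differences lie between 1.05 and 1.21, whereas on 1430482_at they run from 0.25 to 1.39.

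The vector's own gene did not give one reading. Of 3 Asxl1 probe sets, 1458380_at was higher in the ASXL1-MT culture at 4 of 4 times (mean difference 0.68 ± 0.36, SD over 4 time points). In contrast, 1434561_at (-0.34 ± 0.09) and 1435077_at (-0.04 ± 0.04) were lower at all 4. The estimated level was 6.35 for 1458380_at, 12.16 for 1434561_at and 12.06 for 1435077_at, beside a filter cut of 6.23. The species of the introduced cDNA and the positions of these probes in it are not stated by the labels, so these values do not check the labels. Genes next to Adora3 on chromosome 3 had small differences between the cultures, apart from Inka2. The mean was 0.06 for the helicase gene Ddx20, 0.03 and 0.11 on 2 probe sets of the small GTPase gene Rap1a, 0.06 and 0.12 on 2 of the ATP synthase subunit gene Atp5pb, and 0.09 to 0.14 on 3 of Wdr77. Inka2 gave 0.80 ± 2.38 and -0.49 ± 1.18 on its 2 probe sets, whose spread over the time points exceeded the mean. The adjacent genes were taken by position after the values had been seen.

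Both Adora3 probe sets rose between IL-3 and 24 h of G-CSF. The labels give IL-3 for the 0 h arrays and G-CSF for the later ones, and no array stayed in IL-3 over that time. A response to G-CSF, any loss of IL-3 and the added time in culture cannot be told apart. Against IL-3, the change on 1429609_at was 1.56 in the ASXL1-MT culture and 1.51 in mock. The limma estimate over both cultures was 1.54 ± 0.10 (SE; 95% interval 1.27 to 1.80; 2.90-fold; adjusted p = 0.00981). On 1430482_at the change was 1.97 in ASXL1-MT and 2.05 in mock, with an estimate of 2.01 ± 0.31 (1.18 to 2.84; 4.04-fold; limma adjusted p = 0.0223). On either probe set the 24 h changes of the 2 cultures lay closer together than the SE of the estimate, although the cultures stood apart at each time. With 1 array per condition, a difference between these changes was not tested. At 24 h, 3538 of the 29082 tested probe sets were higher (12.2%) and 2498 lower (8.59%), so a rise was common. The median change over all tested probe sets was 0.12, far below either Adora3 value.

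With any single IL-3 or 24 h array left out, both calls ended (changes of 1.50 to 1.57 with adjusted p of 0.078 to 0.0897 on 1429609_at, and 1.89 to 2.14 with 0.103 to 0.124 on 1430482_at), and no probe set of the table passed limma's test then (0, with 7737 to 8299 at an unadjusted p under 0.05). The residual spread behind these standard errors is made of the differences between the cultures on which Adora3 was selected. It may therefore be smaller than for a gene chosen otherwise. With a trend in the prior variance the SE of 1429609_at was 0.273 instead of 0.098 (limma adjusted p = 0.012). The call of 1429609_at was lost without the vector term (limma adjusted p = 0.171), as was that of 1430482_at without the filter on dim probe sets (0.0704).

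At the earlier times Adora3 did not pass the test on either probe set. At 2 h the change on 1429609_at was 0.24 in ASXL1-MT and 0.08 in mock (estimate 0.16 ± 0.10, 95% interval -0.11 to 0.43, limma adjusted p = 0.755). On 1430482_at it was 0.72 and 1.05 (0.88 ± 0.31, 0.05 to 1.71, limma adjusted p = 0.592). These intervals overlap, but the 2 h estimate of 1430482_at lay above the whole interval of 1429609_at. A difference between the probe sets was not tested. For no probe set did the 2 h change pass (0 calls with limma, 0.0%, and 2378 at an unadjusted p under 0.05).

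At 6 h the change on 1429609_at was 0.24 in both cultures (estimate 0.24 ± 0.10, interval -0.03 to 0.51, limma adjusted p = 0.196). On 1430482_at it was 1.41 in ASXL1-MT and 0.59 in mock (1.00 ± 0.31, interval 0.17 to 1.83, limma adjusted p = 0.117). In the table as a whole, 1826 probe sets were higher at 6 h (6.28%) and 1462 lower (5.03%). The step from 6 to 24 h made up most of the rise on 1429609_at, at 1.31 in ASXL1-MT and 1.28 in mock. On 1430482_at that step was 0.56 in ASXL1-MT and 1.46 in mock, and the step from 2 to 6 h had opposite signs in the cultures (0.69 and -0.45). Before 24 h the 2 probe sets thus gave different courses.

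**Figure D3:**
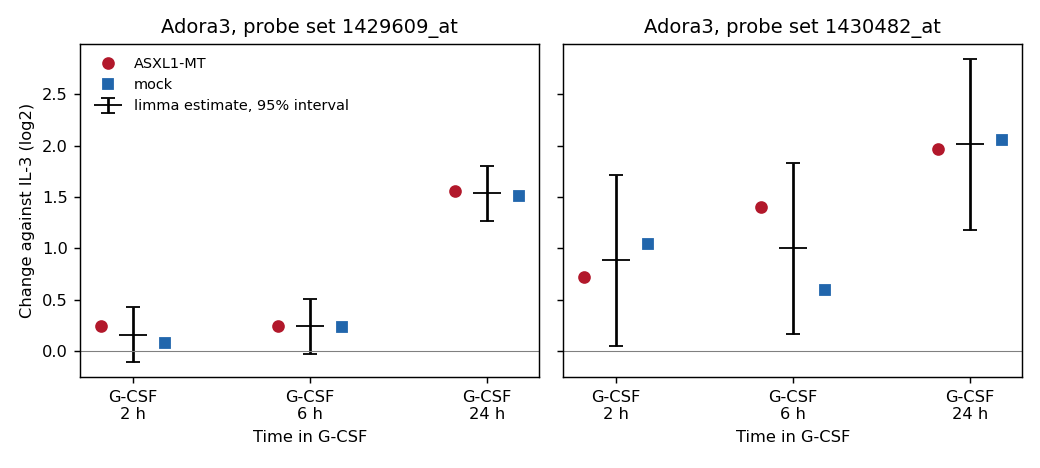
Change of each Adora3 probe set against IL-3 (log2) after 2, 6 and 24 h in G-CSF: circles are the ASXL1-MT culture, squares the mock culture, and the crossbar with its bar is the limma estimate over both with its 95% interval. On 1429609_at the interval contains 0 at 2 and 6 h and runs from 1.27 to 1.80 at 24 h; on 1430482_at all 3 intervals lie above 0, but only the 24 h change passed after adjustment over all probe sets.

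Other cell types of the myeloid series express Adora3, and their markers were read on the same arrays. These counts stand beside 12.2% of all tested probe sets higher and 8.59% lower at 24 h. Of 6 tested neutrophil markers, 6 rose at 24 h, among them the granule genes Ngp (4.95, limma adjusted p = 0.00844) and Lcn2 (4.33, limma adjusted p = 0.00824). Of 5 eosinophil markers, 4 rose at 24 h, and the mean of the list ran from -1.34 to 2.67 over the ASXL1-MT arrays and from -0.94 to 2.28 over the mock arrays. Of 8 tested mast cell and basophil markers out of 11 listed, 2 rose (Cpa3 by 1.75 and Mcpt8 by 0.77) and 2 fell (Cma1, -2.18, and Gata2, -1.31). That list's mean ran from -0.22 to 0.43 over the ASXL1-MT arrays and from -0.99 to 0.43 over the mock arrays. Of the 11 listed genes, 4 had an estimated level under the median of the table (Tpsab1, Mcpt4, Fcer1a and Kit). The estimates of Cpa3, Mcpt8, Tpsb2, Hdc, Cma1, Ms4a2 and Gata2 lay above it. Those of Tpsab1 (6.19), Ms4a2 (6.43), Cma1 (6.68), Hdc (6.72) and Tpsb2 (6.84) were near that median (6.23). Which side of it these genes fall on is uncertain, because the levels were inferred from rounding.

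Between the cultures, 4 of 8 tested mast cell and basophil markers shared Adora3's direction at 4 of 4 times. Of all tested probe sets, 8.29% did, and 2224 of 29082 lay below mock at all 4 times. The 4 markers were Cpa3 (mean difference 0.48), Mcpt8 (0.36), Tpsab1 (0.78) and the transcription factor Gata2 (0.51). Tpsb2 (1.60) was above mock at 3 times, and Ms4a2 (0.14) and Hdc (-0.44) at 1. The protease Cma1 was lower in ASXL1-MT at all 4 (-0.83). None of these differences passed limma's test. The median difference over the tested mast cell and basophil list was 0.42, beside 0.01 over all tested probe sets. Over the eosinophil list it was -0.22, with 1 of 5 tested markers positive. That marker, the peroxidase Epx (0.69), was higher at 4 of 4 times, whereas Siglecf (-0.22) was lower at all 4. Over the neutrophil list the median difference was -0.26, with 0 of 6 tested markers positive, and Ngp (-0.93), Ltf (-0.89) and Lcn2 (-0.35) were lower in ASXL1-MT at all 4 times. Beside 12.2% of all tested probe sets higher and 8.59% lower at 24 h, 9 of 10 tested myeloid progenitor markers rose. By estimated level, Kit and Cd34 were under the median of the table. Of 5 macrophage markers 3 rose, and of the lymphoid, erythroid and fibroblast lists 1, 1 and 2 genes passed the filter, of which 1 fell (Klf1). The part of these cell type markers in the Adora3 values was not tested.

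The genes whose profile was most like 1429609_at over the 8 arrays were Tmem213 (Pearson's r of 0.969), Fancc (0.968), C2cd2 (0.957), 1810013L24Rik (0.952) and 4930432K21Rik (0.95). They were the highest of 12994 genes searched with their best probe set, and the correlations describe arrays that share time and culture. Tmem213 gave -0.06, 0.06, 0.32 and 1.18 in ASXL1-MT and -0.43, -0.54, -0.70 and 0.26 in mock, from IL-3 to 24 h. Fancc, a gene of the Fanconi anaemia DNA repair pathway, gave -0.04, 0.15, 0.04 and 0.82 in ASXL1-MT and -0.69, -0.42, -0.19 and 0.19 in mock. In each of these 5 genes the mock arrays up to 6 h were the 3 lowest and ASXL1-MT at 24 h was the highest. Probe set 1429609_at has the same order, and they were chosen for likeness to it, so this is no separate result. Their mean differences between the cultures, 0.52 to 0.73, were smaller than the 1.10 of Adora3. With the second Adora3 probe set their r was 0.752 to 0.863. Ranked by Spearman's rho instead, 2 of the 5 stayed among the first 5, Fancc and 1810013L24Rik.

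**Figure D4:**
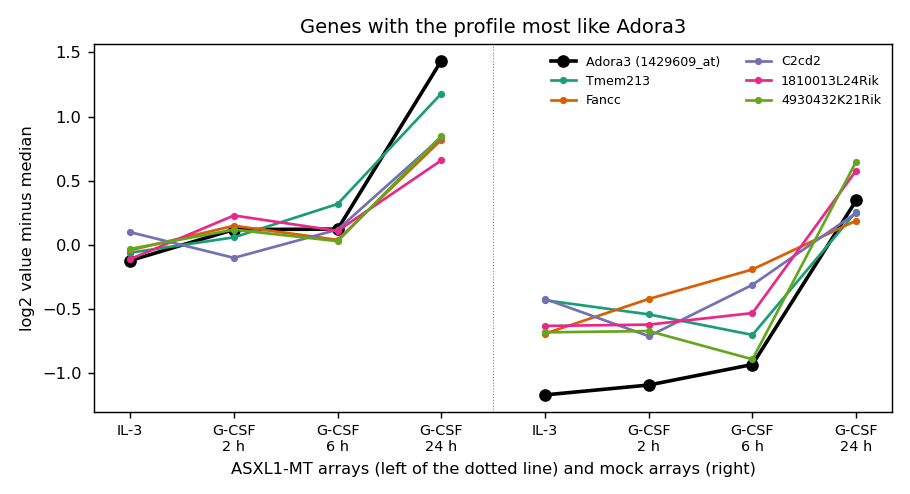
Values (log2, relative to each probe set's median over 8 arrays) of Adora3 probe set 1429609_at and of the 5 genes with the highest Pearson correlation with it, with 1 array per point; the ASXL1-MT arrays are on the left and the mock arrays on the right. All 6 profiles are highest in ASXL1-MT at 24 h, and Adora3 has the widest span, from -1.17 to 1.44.

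The other genes of adenosine supply, removal and signalling were read from lists, each gene by its brightest probe set as estimated. Of 110 tested genes in these lists, 40 passed the test at 24 h, 28 higher and 12 lower, beside 12.2% higher and 8.59% lower among all tested probe sets, and 1 passed without the filter on dim probe sets. At 6 h, 17 passed, and none of these calls held with any 1 array left out. Among all tested probe sets, 6.28% were higher and 5.03% lower at 6 h. With limma 0 of the list genes passed at 2 h (15 at an unadjusted p under 0.05) and 0 between the cultures (11). Of 16 tested genes of adenosine production, 2 rose and 2 fell at 24 h, with a median change of 0.08 beside 0.12 over all tested probe sets. The ectonucleotidase Entpd3 rose by 2.73 ± 0.26 (limma adjusted p = 0.012), and Ahcy, which splits S-adenosylhomocysteine into adenosine and homocysteine, fell by 1.48 ± 0.12 (0.0106). Nt5c2, a cytosolic nucleotidase, rose by 0.66 ± 0.15 (0.0478), a call lost under both other scalings. Enpp3, an ectonucleotide pyrophosphatase, fell at 6 h (-3.57 ± 0.58, 0.0382) and was at 0.10 at 24 h (0.926). Nt5e, which makes adenosine from AMP outside the cell, gave 2.73 ± 0.76 at 6 h (0.0982) and 0.98 ± 0.76 at 24 h (0.423) and did not pass. Its 24 h value turned to -0.15 without the ASXL1-MT 24 h array and was 2.11 without the mock one. Entpd1 did not pass the filter on dim probe sets.

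Of 10 tested genes of adenosine removal and transport, 4 rose and 5 fell at 24 h (12.2% and 8.59% of all tested probe sets did). The median change was -0.11 beside 0.12 over all. The equilibrative nucleoside transporters Slc29a1 and Slc29a2, which carry adenosine across the membrane, fell at 6 h, with changes of -1.91 ± 0.12 and -1.77 ± 0.12 (limma adjusted p = 0.0198 for each). At 24 h they remained below IL-3, by changes of -0.99 ± 0.12 (0.0151) and -1.10 ± 0.12 (0.0139). Adenosine deaminase (Ada) fell by 0.62 ± 0.14 (0.0461) and adenosine kinase (Adk) by 0.65 ± 0.15 (0.0483) at 24 h. Both calls were lost with quantile scaling, and the mean of all Adk probe sets gave -0.26 (0.517). The AMP deaminase Ampd3 rose by 1.15 ± 0.22 at 24 h (0.0346), a call lost with quantile scaling (0.054). Dpp4, a membrane peptidase that binds adenosine deaminase in some species, fell by 4.20 ± 0.66 at 24 h (0.0234), and gave -2.22 (0.092) over the mean of its probe sets.

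Of 27 tested genes of G proteins and receptor desensitisation, 10 rose and 1 fell at 24 h (12.2% and 8.59% of all tested probe sets did), and the median change was 0.45 beside 0.12 over all. Gnai2, the main Gi subunit of leukocytes and so of the class that Adora3 couples to, rose by 0.61 at 6 h (limma adjusted p = 0.0382) and by 0.85 ± 0.10 at 24 h (0.0148). The Gs subunit Gnas rose by 0.45 ± 0.09 (0.0399), a call lost under both other scalings, and the Gq subunit Gnaq gave 0.03 ± 0.24 (0.948). Arrb1, an arrestin that uncouples active receptors, rose by 1.38 ± 0.12 (0.0114), and the gamma subunit Gng2 by 1.73 ± 0.26 (0.0223, and 0.0605 with quantile scaling). The mean of all Gng2 probe sets gave 1.18 (limma adjusted p = 0.0984). The RGS proteins, which shorten G protein signals, did not move together. Rgs2 rose at 24 h by 1.46 ± 0.15 (0.0125), whereas Rgs1 rose at 6 h by 1.47 ± 0.17 (0.0238) and fell at 24 h by 0.96 ± 0.17 (0.0282), a call lost with a trend in the prior variance (0.0628).

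Of 31 tested genes of cAMP synthesis, breakdown and effectors, 5 rose and 1 fell at 24 h. Among all tested probe sets 12.2% rose and 8.59% fell, so the share of rises was near that over all. The median change was 0.23 beside 0.12 over all. The cAMP phosphodiesterase Pde4d rose by 1.37 at 6 h (limma adjusted p = 0.0221) and 1.02 ± 0.14 at 24 h (0.0194), and the cAMP-activated exchange factor Rapgef3 by 1.30 (0.0198) and 0.89 ± 0.09 (0.0124). The cyclase Adcy6 (0.92 ± 0.16, 0.0279) and the phosphodiesterase Pde1b (0.82 ± 0.14, 0.027) rose at 24 h, and both calls were lost with quantile scaling. Of 18 tested CREB target genes, 5 rose and 2 fell at 24 h, beside 12.2% and 8.59% of all tested probe sets. The median was 0.39 beside 0.12 over all. Fos, an AP-1 subunit, rose by 2.15 at 6 h (0.0198) and 2.38 ± 0.15 at 24 h (0.00956). The kinase Sik1 fell by 1.41 ± 0.29 at 24 h (0.0384) and the coactivator Ppargc1a by 3.13 ± 0.71 (0.0491). Over the mean of its probe sets Sik1 gave -0.38 (0.12), and Ppargc1a lost its call with quantile scaling.

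The nucleotide receptors, which bind ATP, ADP, UTP or UDP-sugars and share the purinergic name with the adenosine receptors, gave mixed calls at 24 h. Of 11 tested, 3 rose and 1 fell, beside 12.2% and 8.59% of all tested probe sets, and 10 had a positive change, with a median of 0.92 beside 0.12 over all. P2ry13, an ADP receptor that couples to Gi, rose by 3.53 ± 0.41 (limma adjusted p = 0.0148), a larger estimate than either Adora3 probe set gave. The ATP-gated channel P2rx4 rose by 2.14 at 6 h (0.0216) and 1.92 ± 0.21 at 24 h (0.0137), but the mean of its probe sets gave 1.05 (0.325) at 24 h. P2ry2, an ATP and UTP receptor, rose by 1.54 ± 0.29 (0.033; 0.0538 with quantile scaling), and P2ry14, a UDP-glucose receptor, fell by 0.72 ± 0.12 (0.0256). Between the cultures the median difference of the nucleotide receptors was -0.21, with 4 of 11 positive, and none was called.

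**Figure D5:**
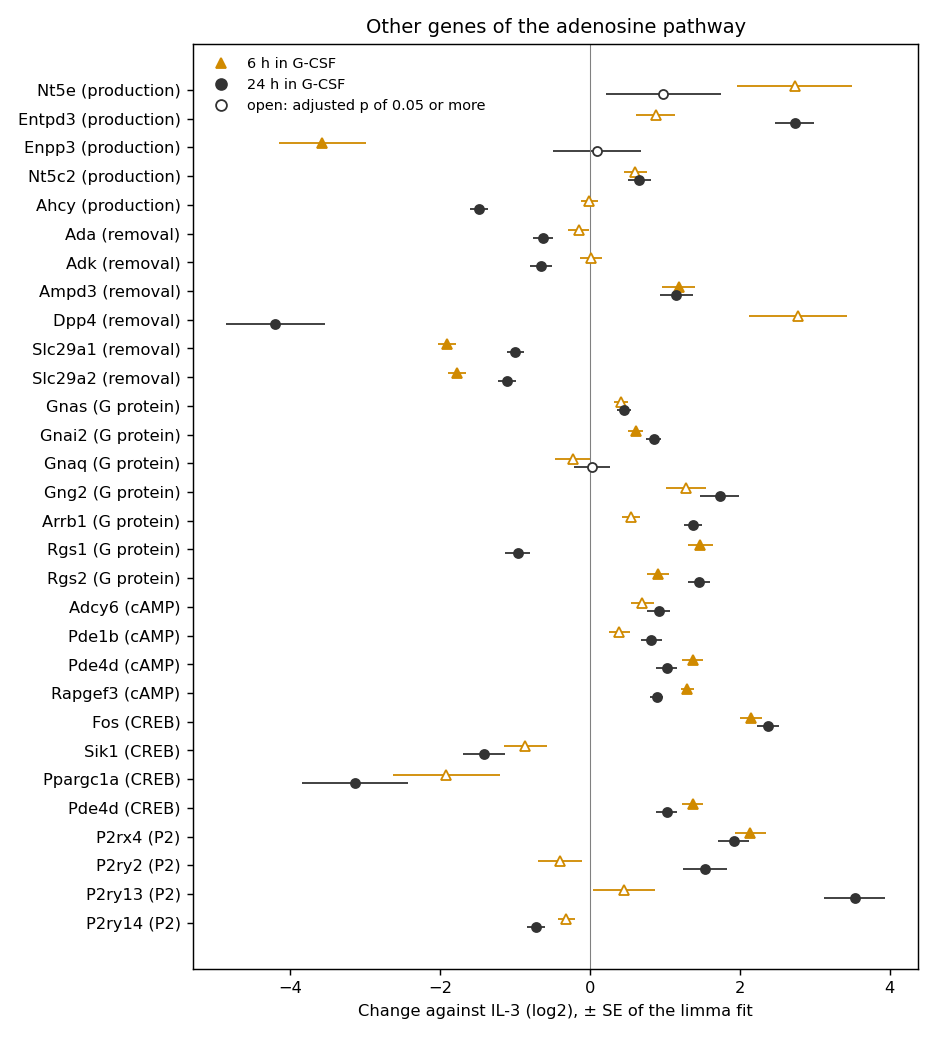
Change against IL-3 (log2 ± SE of the limma fit) at 6 h (triangles) and 24 h (circles) for the named genes of adenosine production, removal, G proteins, cAMP, CREB targets and P2 receptors; filled symbols have an adjusted p under 0.05. Slc29a1 and Slc29a2 lie left of 0 at both times, Gnai2, Pde4d, Rapgef3, Fos and P2rx4 lie right of it at both, and Nt5e is open at both.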

How the data were processed

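RNA was measured on 8 Affymetrix mouse arrays. Per the labels' design text, scanner intensities came from MAS 5.0; RMA is named, versionless, in the submitters' processing notes. The deposited values behave as log2 expression minus each probe set's median over the 8 arrays; that base is assumed, and no label states the centring or scaling. Levels before centring were estimated from the rounding step of the single-precision values. Probe sets whose second-highest array reached the table's median level (6.23) were tested, 29082 of 45037; the Adora3 probe sets were estimated at 6.82 and 7.27. The rounding step bounds their median levels only between 1.17 and 7.99 and between 1.18 and 7.99, so their place above that cut is an estimate. The additive fit of time and culture used limma 3.58.1 in R 4.3.3 (3 residual degrees of freedom, prior 1.27), two-sided, with Benjamini-Hochberg adjustment over all tested probe sets at 0.05, and was tested on simulated data. Symbols came from a probe table (34945 probe sets with 1, 932 with several, 9160 with none). Named genes were, per list, the 4 called genes with the largest change plus Nt5e, Entpd1, Ada, Adk, Slc29a1, Gnas, Gnai2 and Gnaq, and the 5 genes most correlated with Adora3. Members and lists were chosen with earlier results of these data known. Array medians ran from -0.038 to 0.06.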

Additional observations from a re-analysis of the deposited data

How the results depend on the processing

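The number of probe sets called at 24 h (6036) was 477 with no filter on dim probe sets, 2944 with the mean of a gene's probe sets, and 0 to 3075 with 1 array left out. At 6 h (3288) it was 0 with no filter, 5963 with a stricter filter, 5426 with a trend in the prior variance, 2032 with gene means and 0 with any array left out (limma, with 8479 at an unadjusted p under 0.05 for no filter and 6101 to 8324 for the left-out arrays). At 2 h (0) it was 49 with the stricter filter, 1 with quantile scaling, 9 with the trend and 7 without the vector term. Between the cultures (0) it was 2 without the time term. Of the pathway genes called at 24 h (40), 1 passed with no filter, 23 with quantile scaling and 0 to 18 with 1 array left out. At 6 h (17) the counts were 0 with no filter, 32 with the stricter filter, 31 with the trend, and 0 with any array left out. At 24 h, 3538 probe sets were higher and 2498 lower; with arrays centred on their medians these were 2904 and 3052, and with quantile scaling 2015 and 2261. The median change fell from 0.119 to 0.034 and 0.010. Adora3 at 24 h became 1.45 and 1.93 on its 2 probe sets when centred, and 1.25 (limma adjusted p = 0.0205) and 1.73 (0.0316) with quantile scaling. The call of 1429609_at was lost without the vector term (adjusted p = 0.171) and that of 1430482_at with no filter (0.0704). The mean of both probe sets gave 1.77 at 24 h (0.00658) and a difference between the cultures of 0.89. Neither probe set passed the stricter filter. No result of Adora3 reversed under the alternatives run, 74 values kept their direction and side of the threshold, and 10 lost their call. All 10 were of the 24 h change, the only one called. The 2 h and 6 h changes had no call to lose and make up most of the 74. The causes were not tested.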
